A study of Mus musculus with 2 samples.

Results

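The 10 genes described here encode the transforming growth factor beta (TGF-beta) ligand Tgfb1, its receptors Tgfbr1, Tgfbr2 and Tgfbr3, the signal carriers Smad2, Smad3 and Smad4, the inhibitory Smad7 and the corepressors Ski and Skil. They were picked by symbol from the 54532 gene rows of the deposited matrix, and each had exactly 1 row. RNA sequencing compared 2 libraries of diabetogenic CD4 T cells, 1 from mice given 2.5HIP-PLG and 1 from untreated mice. In both groups activated BDC-2.5 T cells, which carry a transgenic T cell receptor, had been transferred into NOD.scid mice, a strain without T and B cells of its own. The treated mice received 1.75 mg of 2.5HIP-PLG nanoparticles intravenously on day 1 after transfer, and the control mice received none. Effector cells that were CD4-positive and negative for the Foxp3-linked green fluorescent protein were sorted from spleen and lymph nodes on day 6, with the cells of 4 mice pooled in each library. Cells from the treated mice are here called 2.5HIP-PLG cells and those from the control mice untreated cells. The age and sex of the mice are not given in the labels. The study was designed to look for mechanisms of tolerance in these cells.

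TGF-beta is secreted in a latent form and becomes active once it is released from its propeptide. Active ligand brings together the type II receptor (Tgfbr2) and the type I receptor (Tgfbr1), which phosphorylates Smad2 and Smad3, and these enter the nucleus with Smad4 to switch genes on or off. Smad7 blocks the type I receptor, Ski and Skil silence Smad-bound promoters, and Smad7 and Skil are themselves targets of the pathway. In CD4 T cells TGF-beta is known for restraining effector responses, and for favouring regulatory and Th17 fates depending on the cytokines around the cell.

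Of the 10 genes, 3 were called lower in 2.5HIP-PLG cells, namely Tgfbr3, Tgfbr1 and Smad7, and 0 were called higher. The other 7 stayed under the size limit, and the median log2 ratio over the 10 was -0.28. Each ratio is 2.5HIP-PLG over untreated after scaling by the column total, with an exact 95% interval. A gene was called when its ratio was at least 1.5 in either direction and its interval excluded 1. Among all 13902 genes with at least 20 counts in the 2 libraries together, 9.7% were called lower and 5.15% higher, with a median log2 ratio of -0.01. A closer comparison in abundance is with the 5566 protein-coding genes whose count sums lay between those of the scarcest and the most abundant of the 10. This range is wide, from 1321 counts (Tgfbr1) to 15738 (Tgfbr2). Tgfbr3 and Smad7 also lay in its lower part, so shares of this set are not matched to the counts of a single gene. Of the 5566 genes, 2.59% were called lower and 2.75% higher, and their median log2 ratio was 0.02.

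With 1 library per group there is no replicate check, no p-value is given, and the intervals cover counting error only. Neither the spread between mice nor that between library preparations enters them. All 10 genes were well counted, with at least 435 counts in either library. The intervals lay wholly under 1 for 7 genes and wholly over 1 for 2, and included 1 for Smad4. Among all measured genes 26.3% had an interval wholly under 1 and 24.3% wholly over 1, so that at this depth an interval that excludes 1 is common.

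**Figure D1:**
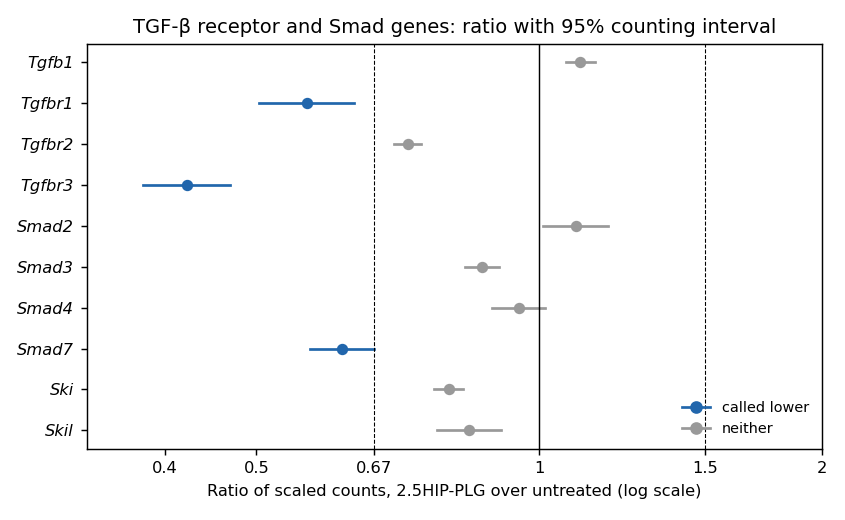
Ratio of scaled counts, 2.5HIP-PLG over untreated, on a log axis for each of the 10 genes, with its 95% counting interval as a bar. The dashed lines mark the size limits, and Tgfbr3, Tgfbr1 and Smad7, drawn in blue, lie left of the lower one.

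The libraries held 22580648 counts (2.5HIP-PLG) and 26036623 counts (untreated). Cd4 had 41743 counts in 2.5HIP-PLG cells and 39739 in untreated cells, and Cd3e had 23550 with 2.5HIP-PLG and 20110 without, so the labelled cell type carried its markers in both. The 8 CD4 T cell markers summed to 6140 CPM (counts scaled to a total of 1000000) in 2.5HIP-PLG cells and 4853 CPM in untreated cells, and 0 of 8 were called. Cd8a had 0 counts with 2.5HIP-PLG and 9 without treatment. Foxp3, the gene whose reporter was sorted against, had 1157 counts in 2.5HIP-PLG cells and 389 in untreated cells, and its estimates were not whole numbers.

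The ligand gene Tgfb1 was abundant and nearly even. It had 6183 counts (273.8 CPM) in 2.5HIP-PLG cells and 6449 counts (247.7 CPM) in untreated cells. The 2.5HIP-PLG value was the higher by a ratio of 1.11 (95% interval 1.07 to 1.14), short of the size limit. Platelets are a rich source of this ligand, and their markers were scarce in both libraries. The 5 platelet and megakaryocyte genes summed to 2.39 CPM with 2.5HIP-PLG and 2.15 CPM without it. Itga2b had 23 counts with 2.5HIP-PLG and 35 without, and Pf4 had 8 counts with 2.5HIP-PLG and 0 without. The part of platelets in the Tgfb1 values was not tested. Tgfb1 lies on chromosome 7 from 25687002 to 25705077 (GRCm38, plus strand).

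All 3 receptor genes had lower values in 2.5HIP-PLG cells, but to unequal degrees. Tgfbr3 encodes betaglycan, a coreceptor that presents the ligand to Tgfbr2. It had 477 counts (21.1 CPM) with 2.5HIP-PLG and 1304 counts (50.1 CPM) without treatment, which made it 2.37-fold lower (2.13 to 2.64), the largest difference among the 10 genes. A ratio as low or lower was found in 28 of the 5566 protein-coding genes in the count-sum range of the 10 genes (0.503%). The untreated value of Tgfbr3 was the only one among the 10 genes that was not a whole number before rounding (1303.83). One annotated gene of unproven status, Gm43422, overlaps Tgfbr3 exons by 297 bases on the same strand and had 0 counts with 2.5HIP-PLG and 6 without. These counts are few beside those of Tgfbr3 itself.

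Tgfbr1, the kinase that phosphorylates Smad2 and Smad3, had 435 counts (19.3 CPM) in 2.5HIP-PLG cells and 886 counts (34.0 CPM) in untreated cells. It was 1.77-fold lower (1.57 to 1.99), and 75 of the 5566 genes in the count-sum range (1.35%) had a ratio as low or lower. As Tgfbr1 sets the lower end of that range, no gene in it had fewer counts. Tgfbr2, the receptor that first binds the ligand, had 6072 counts (268.9 CPM) with 2.5HIP-PLG and 9666 counts (371.2 CPM) without treatment. It was 1.38-fold lower (1.34 to 1.43), an interval that lay wholly within the size limit, so that Tgfbr2 was not called. It was the gene nearest to the limit among those that were not called. On GRCm38 Tgfbr3 spans 107106570 to 107289629 of chromosome 5 (minus strand), Tgfbr1 spans 47353222 to 47414931 of chromosome 4 (plus strand), and Tgfbr2 spans 116084293 to 116175360 of chromosome 9 (minus strand).

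Tgfbr3 and Tgfbr1 also differed from Tgfbr2. The ratio of 1 gene's counts to another's within a library needs no scaling between libraries. Tgfbr3 counts came to 0.0786 of Tgfbr2 counts in 2.5HIP-PLG cells and 0.135 in untreated cells, a 1.72-fold smaller proportion (1.54 to 1.92). For Tgfbr1 over Tgfbr2 the proportion was 0.0716 with 2.5HIP-PLG and 0.0917 without, 1.28-fold smaller (1.13 to 1.44). The untreated library thus held more Tgfbr3 and Tgfbr1 RNA relative to Tgfbr2 RNA, and receptor protein was not measured. In bulk RNA such as this, fewer cells that express a gene and less RNA per cell cannot be told apart.

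**Figure D2:**
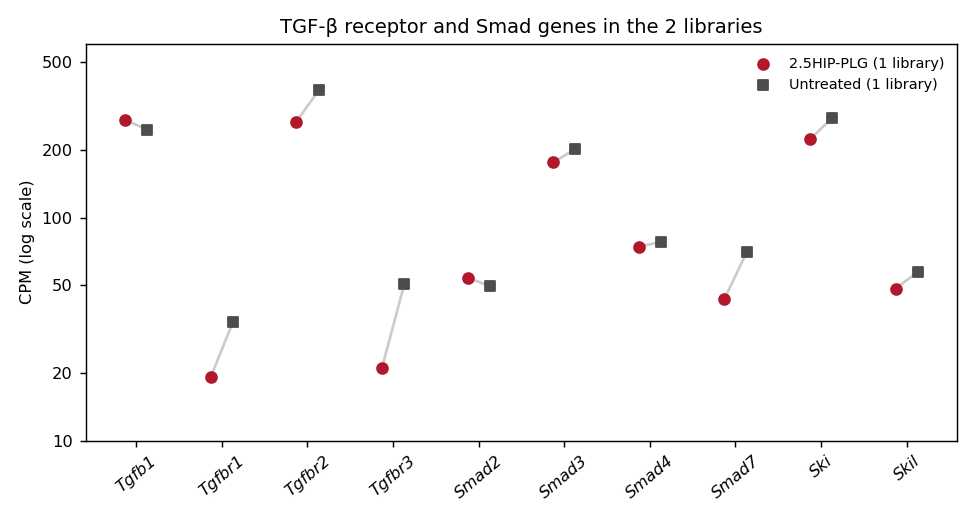
CPM on a log axis for each gene, with the 2.5HIP-PLG library as a red circle and the untreated library as a grey square, 1 library each. The steepest steps are those of Tgfbr3 (21.1 against 50.1 CPM), Tgfbr1 (19.3 against 34.0 CPM) and Smad7 (43.0 against 69.8 CPM).

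The start regions of the 2 signalling receptors and of the ligand are shown because the receptor genes had lower values in 2.5HIP-PLG cells and the ligand gene did not. RefSeq windows of 250 bases before to 50 after the start (GRCm38.p6) were used for 5 of the 10 genes. These were Tgfb1, Tgfbr1, Tgfbr2, Smad3 and Ski. No window was used for Tgfbr3, Skil, Smad2, Smad4 or Smad7. In the sequences, written 5′ to 3′ on the gene's own strand, capitals mark the GC box GGGCGG, which binds Sp1, and the Smad box CAGAC, each searched on both strands.
Tgfbr1 (chr4:47352972-47353271, plus strand): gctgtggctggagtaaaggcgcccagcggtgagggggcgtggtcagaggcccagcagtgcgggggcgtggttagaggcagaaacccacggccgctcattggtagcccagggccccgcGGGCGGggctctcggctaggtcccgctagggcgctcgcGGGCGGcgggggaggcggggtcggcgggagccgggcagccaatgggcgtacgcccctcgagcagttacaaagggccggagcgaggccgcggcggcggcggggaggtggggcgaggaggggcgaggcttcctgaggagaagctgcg
Tgfbr2 (chr9:116175314-116175613, minus strand): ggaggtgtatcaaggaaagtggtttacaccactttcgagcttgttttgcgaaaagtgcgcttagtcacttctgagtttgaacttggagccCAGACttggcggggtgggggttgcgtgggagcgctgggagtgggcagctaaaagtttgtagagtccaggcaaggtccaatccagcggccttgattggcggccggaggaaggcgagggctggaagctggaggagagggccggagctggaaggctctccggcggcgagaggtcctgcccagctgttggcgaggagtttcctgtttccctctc
Tgfb1 (chr7:25686752-25687051, plus strand): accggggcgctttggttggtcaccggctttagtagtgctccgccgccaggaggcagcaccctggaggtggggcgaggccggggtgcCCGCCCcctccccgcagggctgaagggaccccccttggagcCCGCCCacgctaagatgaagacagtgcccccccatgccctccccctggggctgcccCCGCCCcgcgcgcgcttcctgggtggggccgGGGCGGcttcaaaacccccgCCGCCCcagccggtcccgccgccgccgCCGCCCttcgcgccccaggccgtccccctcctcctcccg
The Tgfbr1 window shown held 2 GC boxes and 0 Smad boxes, with 74.7% G and C. RefSeq gives Tgfbr1 another window, 32994 bases along the gene, which is not shown and held 0 GC boxes and 1 Smad box at 52.0% G and C. The Tgfbr2 window held 0 GC boxes and 1 Smad box at 59.0% G and C, and the Tgfb1 window 6 GC boxes and 0 Smad boxes at 77.0%. Over all 32851 windows 35.7% held at least 1 GC box and 49.6% at least 1 Smad box, so neither motif is rare. The windows of Smad3 and Ski held 2 and 6 GC boxes. The palindrome GTCTAGAC, a strong Smad site found in 0.213% of all windows, occurred in 0 of the 6 windows of these 5 genes. It was not searched for in the other 5, which include the called genes Tgfbr3 and Smad7. A match is a run of letters and no evidence of binding.

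The receptor-regulated Smads were closer to even. Smad2 had 1215 counts (53.8 CPM) in 2.5HIP-PLG cells and 1281 counts (49.2 CPM) in untreated cells, a ratio of 1.09 (1.01 to 1.18). Smad3, the one that binds DNA directly, had 3987 counts (176.6 CPM) with 2.5HIP-PLG and 5288 counts (203.1 CPM) without, a ratio of 0.869 (0.834 to 0.906). Neither was called. Smad3 lies on chromosome 9 from 63646767 to 63757994 (minus strand). Relative to Smad2, Smad3 had 3.28 counts per count in 2.5HIP-PLG cells and 4.13 in untreated cells, a proportion 1.26-fold smaller (1.15 to 1.38). Smad4, the common partner of both, had 1670 counts (74.0 CPM) with 2.5HIP-PLG and 2026 counts (77.8 CPM) without. Its ratio of 0.9504 had an interval of 0.890 to 1.01, so no difference was detectable at this depth, and one beyond the size limit lies outside the interval.

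Smad7, the inhibitor that the pathway induces against itself, was the only Smad called. It had 972 counts (43.0 CPM) in 2.5HIP-PLG cells and 1818 counts (69.8 CPM) in untreated cells, 1.62-fold lower (1.4997 to 1.76). In the 5566 genes of like abundance 102 (1.83%) had a ratio as low or lower. Set against Smad3, Smad7 made up a 1.41-fold smaller proportion (1.29 to 1.54), with 0.244 counts per Smad3 count with 2.5HIP-PLG and 0.344 without. Smad7 (75367529 to 75395935, plus strand), Smad2 (76241580 to 76310963, plus strand) and Smad4 (73639009 to 73703780, minus strand) all lie on chromosome 18, and of these Smad7 alone was called.

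Both corepressor genes, Ski on chromosome 4 (155154075 to 155222592, minus strand) and Skil on chromosome 3 (31095058 to 31122577, plus strand), had slightly lower values in 2.5HIP-PLG cells. Ski had 5060 counts (224.1 CPM) with 2.5HIP-PLG and 7284 counts (279.8 CPM) without treatment, a ratio of 0.801 (0.773 to 0.830). Skil, which encodes SnoN, had 1084 counts (48.0 CPM) in 2.5HIP-PLG cells and 1485 counts (57.0 CPM) in untreated cells, a ratio of 0.842 (0.778 to 0.911). The pair kept nearly the same proportion, with 0.214 Skil counts per Ski count in 2.5HIP-PLG cells and 0.204 in untreated cells (ratio of ratios 1.05, 0.963 to 1.15). Although Skil and Smad7 are both pathway targets, only Smad7 met the rule, and the difference between these 2 genes was not tested.

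**Figure D3:**
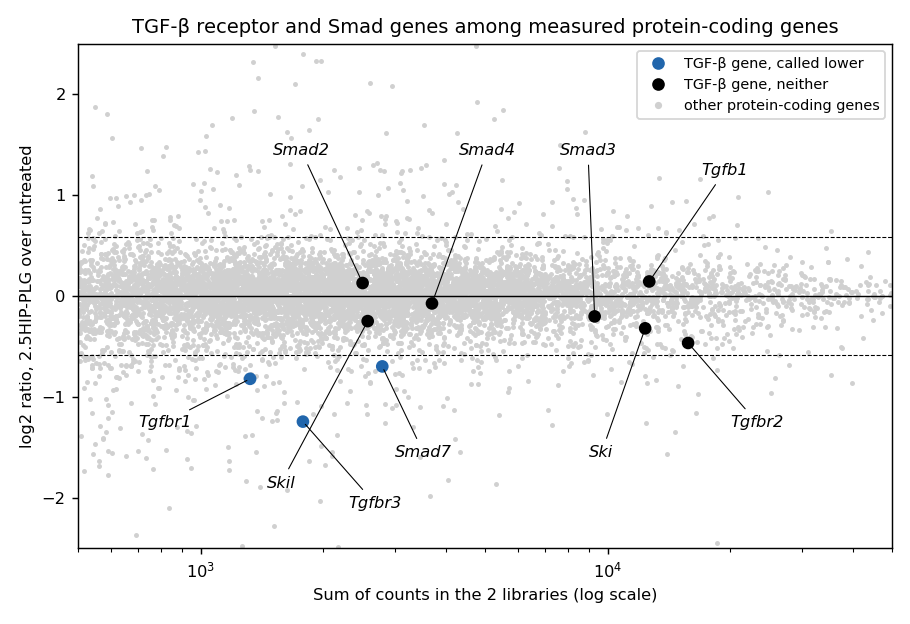
log2 ratio against the sum of counts (log axis) for measured protein-coding genes, drawn between count sums of 500 and 50000 and log2 ratios of -2.5 and 2.5, which leaves out 18 genes of that count range. Blue points are the 3 TGF-beta genes called lower, black points the other 7, and the dashed lines mark the size limits.

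Levels can be compared between genes only per length, so CPM was divided by the kilobases of annotated exon (GENCODE M21). In 2.5HIP-PLG cells the order ran from Tgfb1 at 54.3 CPM per kilobase over Ski at 40.3, Tgfbr2 at 32.8, Smad3 at 31.9 and Smad4 at 19.9 CPM per kilobase. Below them stood Smad7 at 9.52, Smad2 at 6.13, Skil at 4.95, Tgfbr3 at 3.23 and Tgfbr1 at 2.95 CPM per kilobase. Neighbours were apart by more than their exact Poisson intervals except for Tgfbr2 and Smad3, and Tgfbr3 and Tgfbr1.

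In untreated cells Ski (50.3 CPM per kilobase) and Tgfb1 (49.1) led with overlapping intervals, followed by Tgfbr2 at 45.3, Smad3 at 36.6, Smad4 at 21.0 and Smad7 at 15.4 CPM per kilobase. Tgfbr3 stood above Skil and Smad2 there, at 7.65 against 5.88 and 5.60 CPM per kilobase, whereas in 2.5HIP-PLG cells it stood below both. Tgfbr1 was last at 5.21 CPM per kilobase, with intervals of Skil, Smad2 and Tgfbr1 that overlapped from each to the next. In terms of rank among measured genes, Tgfbr2 was at percentile 88.9 with 2.5HIP-PLG and 92.3 without, and Tgfbr3 was at percentile 40.8 with it and 59.9 without. Tgfbr1 RNA thus had only 0.0898 of the length-scaled level of Tgfbr2 RNA in 2.5HIP-PLG cells and 0.115 in untreated cells. These levels depend on the length used. Divided by the longest transcript instead, Tgfb1 came to 106.4 CPM per kilobase in 2.5HIP-PLG cells and 96.3 in untreated cells and led in both, and Skil stood above Tgfbr3 in untreated cells (8.49 against 8.23 CPM per kilobase).

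**Figure D4:**
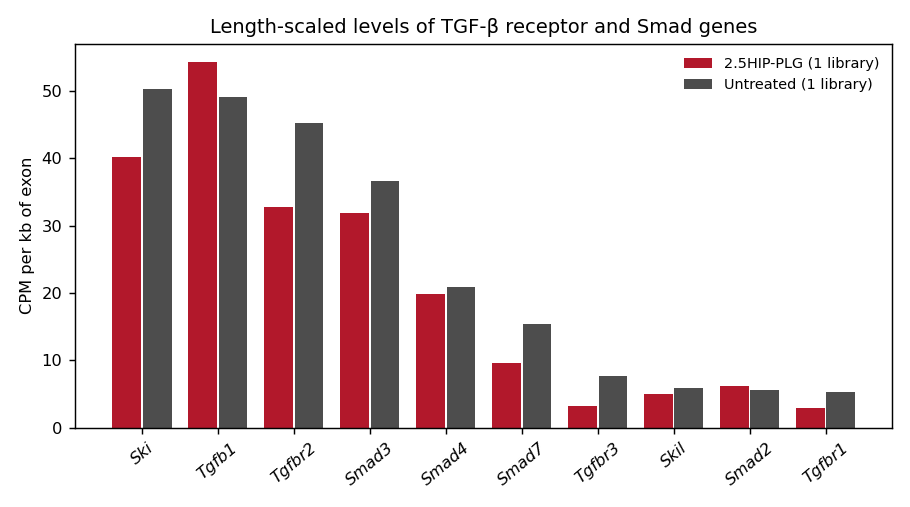
CPM per kilobase of exon for each gene, with the 2.5HIP-PLG library in red and the untreated library in grey, ordered by the untreated level. Ski, Tgfb1, Tgfbr2 and Smad3 stood highest in both libraries, and Tgfbr1 lowest.

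The 5566 protein-coding genes in the count-sum range of the 10 genes were split into 4 equal groups by span. The share called lower was 2.73% in the group with the shortest spans, and 1.80% and 2.30% in the next groups. In the group with the longest spans (56.8 to 969.9 kilobases) it was 3.52%. In the same order the share called higher was 2.15%, 2.45%, 2.44% and 3.95%, and the median log2 ratio was 0.01, 0.03, 0.03 and 0.01. The longest group holds 7 of the 10 genes, namely Tgfbr1 (61.7 kilobases), Tgfbr2, Tgfbr3 (183.1 kilobases), Smad2 (69.4 kilobases), Smad3, Smad4 (64.8 kilobases) and Ski. Smad7 (28.4 kilobases) and Skil belong to the next longest group and Tgfb1 to the one below it. The part of span in the ratios was not tested.

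Around the 10 genes, further parts of the pathway were read from 5 lists. Their calls are to be read beside the shares of all measured genes, 5.15% higher and 9.7% lower. Of 26 other ligands and activators only 12 were measured, with 1 higher, 3 lower and a median log2 ratio of -0.26. Most of them rested on few reads. Itgb8, a subunit of the integrin that frees TGF-beta from its latent form, had 37 counts in 2.5HIP-PLG cells and 6 in untreated cells (ratio 7.11, 2.97 to 20.6). Its partner Itgav had 1517 counts with 2.5HIP-PLG and 1672 without, and was not called (1.05, 0.975 to 1.12).

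The lower ligand genes were Bmp7 with 11 counts with 2.5HIP-PLG and 46 without, Inha with 11 in treated and 38 in untreated cells, and Fstl3, a secreted binder of activin, with 22 in treated and 62 in untreated cells. Ltbp4, which tethers latent TGF-beta to matrix, had 16 counts with 2.5HIP-PLG and 8 without, with a ratio of 2.31 and an interval (0.931 to 6.22) that included 1. Lrrc32, which docks latent TGF-beta on regulatory T cells, had 12 counts in 2.5HIP-PLG cells and 4 in untreated cells and was not measured. Among 6 regulatory T cell markers, 5 were measured and 4 of these were called higher, against 5.15% of all measured genes. The fifth and most abundant, Il2ra, which encodes CD25, stood the other way without being called, with 812 counts in 2.5HIP-PLG cells and 1358 in untreated cells (ratio 0.689, 0.631 to 0.753). The marker list, which holds Itgb8 and Foxp3, summed to 148.9 CPM in 2.5HIP-PLG cells and 96.6 CPM in untreated cells, and its part in the values of the 10 genes was not tested.

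Of 15 other receptors and coreceptors 9 were measured, with 2 higher, 3 lower and a median log2 ratio of -0.19. Acvr1b, the type I activin receptor that also signals through Smad2 and Smad3, had 229 counts with 2.5HIP-PLG and 426 without (1.61-fold lower, 1.37 to 1.90). Acvr2a had 44 counts in treated and 99 in untreated cells (1.95-fold lower, 1.355 to 2.85), and Bmpr1a had 43 in treated and 128 in untreated cells (2.58-fold lower, 1.81 to 3.74). Bmpr2, the type II BMP receptor, had 591 counts in 2.5HIP-PLG cells and 545 in untreated cells (ratio 1.25, 1.11 to 1.41) and was not called. Nrp1, a cell surface protein that can bind TGF-beta, was higher, with 5123 counts in 2.5HIP-PLG cells and 3227 in untreated cells (1.83, 1.75 to 1.91). Cd109, a coreceptor that dampens signalling, had 28 counts with 2.5HIP-PLG and 17 without, and its interval barely excluded 1 (1.90, 1.004 to 3.70), so that it was not called under 2 of the 4 other scalings.

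Of 37 other Smads and Smad regulators 33 were measured, 0 were higher, 2 lower and 31 neither, and the median log2 ratio was -0.07. Those 31 are 93.9% of the measured ones. Of the 5566 protein-coding genes in the count-sum range of the 10 genes, 94.7% were called neither way. This list is not matched to that range, and both of its lower genes lie below it. Of all measured genes 9.7% were called lower and 5.15% higher. The 2 lower genes of the list were scarce. Zfyve9, the anchor that brings Smad2 and Smad3 to the receptor, had 6 counts in 2.5HIP-PLG cells and 26 in untreated cells (3.76-fold lower, 1.51 to 11.2). Pmepa1, a target and inhibitor of the pathway, had 66 counts in treated and 151 in untreated cells (1.98-fold lower, 1.48 to 2.69). Smurf1, a ubiquitin ligase for Smads and receptors, had 725 counts with 2.5HIP-PLG and 1184 without (1.42-fold lower, 1.29 to 1.56), under the size limit. Crebbp, a coactivator of Smads, had a ratio of 0.814 (0.782 to 0.847), and Fkbp1a, which holds Tgfbr1 inactive, a ratio of 1.22 (1.16 to 1.28).

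Genes known to be induced by TGF-beta in T cells did not share a direction. Of 21 listed, 19 were measured, with 4 higher, 7 lower, 8 neither and a median log2 ratio of -0.24. The largest difference was that of Itgae, the CD103 integrin chain, with 63 counts (2.79 CPM) in 2.5HIP-PLG cells and 1065 counts (40.9 CPM) in untreated cells, 14.7-fold lower (11.4 to 19.2). Gpr15, a gut homing receptor, had 34 counts in treated and 185 in untreated cells (4.72-fold lower, 3.26 to 7.02). Itga1, which encodes CD49a, had 468 counts in treated and 1510 in untreated cells (2.80-fold lower, 2.52 to 3.11).

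Other members of the same list stood higher. Rgs16, a regulator of G protein signalling, had 3364 counts in 2.5HIP-PLG cells and 644 in untreated cells (6.02, 5.53 to 6.56), and Foxp3 had a ratio of 3.43 (3.05 to 3.86). The expected counts of Gpr15, Itga1, Rgs16 and Foxp3 were not whole numbers, as happens when reads are divided among genes, and are less certain. The same holds for Tgfbr3, Cd3e, Itgav, Fstl3, Acvr2a and Mpo, which are named in other paragraphs. Several genes of the induced list answer to signals other than TGF-beta, and the list does not measure the pathway by itself. It also holds Pmepa1, counted above.

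Of 20 genes known to be repressed by TGF-beta in T cells 17 were measured, with 3 higher, 2 lower, 12 neither and a median log2 ratio of -0.07. Gzmb, encoding granzyme B, had 6404 counts in 2.5HIP-PLG cells and 2396 in untreated cells (3.08, 2.94 to 3.23). Eomes, a transcription factor of cytotoxic cells, had 735 counts in treated and 360 in untreated cells (2.35, 2.07 to 2.68), and Prf1, encoding perforin, had 831 in treated and 638 in untreated cells with a ratio at the size limit (1.502, 1.353 to 1.67) that missed it under 2 of the 4 other scalings. Gzma, encoding granzyme A, stood the other way with 2528 counts with 2.5HIP-PLG and 15968 without (5.48-fold lower, 5.25 to 5.71), as did Klrg1, an inhibitory receptor of late effector cells (2.61-fold lower, 2.36 to 2.88).

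**Figure D5:**
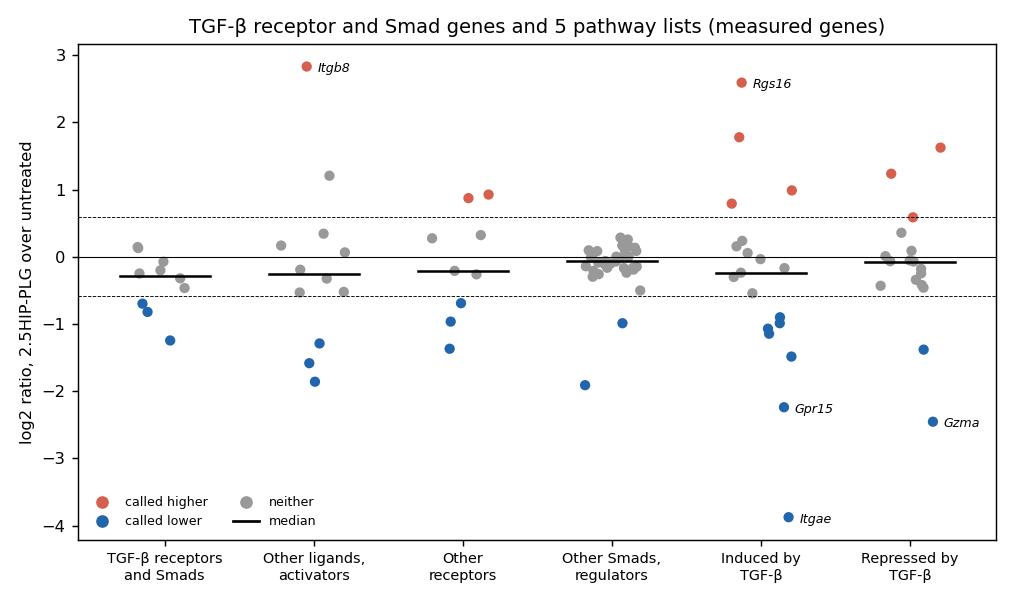
log2 ratio of 2.5HIP-PLG over untreated for each measured gene of the 10 TGF-beta genes and of the 5 pathway lists, with the median as a black bar and the size limits dashed. Of the other Smads and regulators 31 of 33 were called neither way, and the genes induced by TGF-beta spread from Itgae (14.7-fold lower) to Rgs16 (ratio 6.02).

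Markers of several other cell types differed between the libraries. For all measured genes the shares called were 5.15% higher and 9.7% lower. Mast cell and basophil genes summed to 18.5 CPM in 2.5HIP-PLG cells and 4.38 CPM in untreated cells, with 4 of 4 measured genes higher (Prss34 with 199 counts in treated and 54 in untreated cells, Mcpt8 with 116 in treated and 22 in untreated cells). Neutrophil genes summed to 13.4 CPM in treated and 3.73 CPM in untreated cells, with 2 of 3 higher. These were Mpo, with 237 counts in treated and 57 in untreated cells, and Elane, with 31 in treated and 9 in untreated cells. Ly6g, with 14 counts in treated and 11 in untreated cells, was not called. S100a8, S100a9 and Camp had too few counts to be measured, so the sum rests mostly on Mpo. Dendritic cell genes summed to 64.6 CPM with 2.5HIP-PLG and 89.9 CPM without, with 1 of 6 lower and Cd74 as the most abundant (1042 counts with 2.5HIP-PLG and 1541 without). Macrophage and monocyte genes summed to 25.9 CPM in treated and 22.9 CPM in untreated cells, with 3 of 7 higher. The most abundant, Itgam, stood the other way without being called (219 counts in treated and 325 in untreated cells, ratio 0.777, 0.652 to 0.925). Cd68 was not called either, with 107 counts in treated and 96 in untreated cells. Erythroid genes summed to 50.2 CPM in treated and 47.7 CPM in untreated cells, with 1 of 4 higher.

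B cell genes summed to 183.9 CPM in 2.5HIP-PLG cells and 110.3 CPM in untreated cells, nearly all from Ighm (3761 counts with 2.5HIP-PLG and 2641 without), while Ms4a1 had 0 counts in both. Of this list 2 of 2 measured genes were higher. Stromal and endothelial genes summed to 130.4 CPM in treated and 101.2 CPM in untreated cells, with 2 of 4 higher. Pecam1 gave 2850 counts in treated and 2573 in untreated cells of that sum, and Col3a1 had 0 counts in both. NK cell genes summed to 45.2 CPM with 2.5HIP-PLG and 31.3 CPM without, with 1 of 4 higher (Eomes) and 2 lower. Without Eomes the other 3 summed to 12.7 CPM in 2.5HIP-PLG cells and 17.5 CPM in untreated cells, the other direction. CD8 T cell genes summed to 13.5 CPM with 2.5HIP-PLG and 10.8 CPM without. Nearly all of it came from Cd8b1 (304 counts with 2.5HIP-PLG and 272 without), as Cd8a had 0 with 2.5HIP-PLG and 9 without. The part of any such cells in the values of Tgfbr1, Tgfbr3 and Smad7, which lay between 19.3 and 69.8 CPM, was not tested.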

How the data were processed

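RNA was extracted with an RNeasy Plus Mini Kit and sequenced from mRNA libraries of a NuGen Universal Plus kit, per the labels' protocols. The submitters' processing notes name STAR, RSEM 1.3.1 and GRCm38. For the STAR version, the annotation and the strand setting nothing is given in the sources used here, so overlapping genes on either strand are uncertain. The authors deposited RSEM expected counts for each gene, which need not be whole and were not scaled between libraries. In the 2.5HIP-PLG library 11.1% of rows were not whole, and in the untreated library 11.8%.

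Each library was assigned by its treatment label. Counts were rounded and divided by the column total. 1 read was worth 0.0443 CPM (2.5HIP-PLG) and 0.0384 CPM (untreated). Ratios have exact conditional binomial (Clopper-Pearson) 95% intervals, computed with Python 3.11.15, numpy 2.4.6, pandas 2.3.3 and scipy 1.17.1. Ratios of 2 genes' ratios have exact conditional odds ratio intervals. Medians used 0.5 counts added. No molecular identifiers are described, so PCR copies may make intervals too narrow. Gene spans and exon lengths came from GENCODE M21 (GRCm38), which holds 54495 of the 54532 row IDs. Ratios and calls were tested on simulated counts. Alternatives used scaling factors from edgeR 4.0.16 and DESeq2 1.42.0 in R 4.3.3. Figures were drawn with matplotlib 3.10.9.

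The 10 genes and all lists were chosen with earlier results of these data known. Named genes are the 10 genes, up to 5 per pathway list with the largest absolute log2 ratio, checks of the sort, overlapping genes and up to 2 abundant genes per marker list. Itgav, Lrrc32, Bmpr2, Pmepa1 as a target, and marker genes at or near 0 were named after their values were seen. Neutrophil markers beyond Mpo and Elane, and the NK cell sum without Eomes, were also chosen after their values were seen. No likeness of pattern between genes was computed, since 2 libraries hold no pattern to compare.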

Additional observations from a re-analysis of the deposited data

How the results depend on the processing

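None of the calls of the 10 genes changed under the 4 other scalings or with unrounded counts, and the 50 ratios so obtained ran from 0.417 (Tgfbr3) to 1.12 (Tgfb1). In all, 263 alternative values over 11 settings were computed, of which 33 moved. Among these are the levels per kilobase by the longest transcript, a setting chosen after seeing the data. At a ratio limit of 2, 1 of the 10 genes (Tgfbr3) was called lower, all measured genes gave 387 higher and 808 lower calls, other receptors 0 higher and 1 lower, other Smads and regulators 1 lower, and the induced list 2 higher. With a count sum of at least 100, all measured genes gave 473 higher and 748 lower calls, the other ligands and activators 0 in either direction, the other receptors 1 higher and the other Smads and regulators 1 lower, since fewer genes were tested. With a minimum of 10, the other ligands and activators had 2 higher genes. Without a minimum they also had 2, and their median log2 ratio was 0.17, opposite in sign to the -0.26 reported. The other receptors had 1 higher gene under upper quartile scaling, without the 20 most abundant genes in the total, and with a 99% interval. No paired analysis was possible because each group has 1 library, and for the same reason no library could be left out. Depth limits the scarce ligands and receptors, where a count of 0 allows up to 0.133 CPM (2.5HIP-PLG) and 0.115 CPM (untreated), counting error only.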
